A study of Ginkgo biloba with 9 samples.

Results

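The gene models described here are those of Ginkgo biloba leaves whose transcript counts peaked at the turning stage of autumn, between the green and the yellow leaf. Counts of each library were divided by its DESeq2 median-of-ratios size factor, which puts the 9 libraries on a common scale, and these normalized counts are the level used below unless a sentence names another. A model was a member when its lowest turning library reached at least 27 normalized counts and at least 1.5 times the highest of the 6 green and yellow libraries, and when it was not among the 100 models with the highest mean in green or in yellow leaves. Of 43834 gene models in the table, 50 met the rule, and the lists of the 100 highest models removed none. Members were thus selected on the turning, green and yellow counts of these same libraries, so the peak is described and not tested. The identifiers are not paired with gene names or descriptions in the files, so no function is given for any of them. Marker genes of leaf cell types could not be checked for the same reason.

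Ginkgo biloba is a deciduous gymnosperm whose leaves turn from green to yellow in autumn. In leaf senescence the photosynthetic apparatus is taken apart, chlorophyll is broken down while yellow carotenoids remain visible, and nitrogen and other nutrients are moved back into the branches before the leaf is shed. Leaf senescence is known as a regulated program in which some genes are active throughout and others only at an intermediate step. The labels name no treatment and trace the leaves to 3 healthy adult trees that grew outdoors at one site in Yangzhou, China. Green leaves, labelled the mature stage, were taken on September 12. Turning leaves followed on October 26, and yellow leaves, labelled the senescence stage, on November 8, which leaves 44 days between the first and the second date and 13 between the second and the third. Each stage had 3 libraries, numbered 1 to 3. The labels do not say which library came from which tree, stage and date cannot be told apart, and a p-value here covers only how far these libraries spread, which may be technical. Library totals ran from 23766331 to 32319325 counts.

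The peak was low in most members and high in a few. The peak ratio, which is the lowest turning library divided by the highest green or yellow library, had a median of 1.74 with quartiles of 1.61 and 1.98, and 13 members reached a ratio of 2 or more. In terms of stage means, turning leaves stood a median of 3.07-fold above green leaves, from 1.88-fold to 31.1-fold, and a median of 3.68-fold above yellow leaves, from 1.78-fold to 26.7-fold. In bulk leaf RNA a higher count cannot be told apart from a larger share of cells of a type that carries the transcript. Mean normalized counts at the turning stage ran from 41.4 to 15096, with a median of 547. These counts are not divided by transcript length, so they give the depth behind each member and no order of expression between models. The lowest raw count of any member in a turning library was 37.

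**Figure D1:**
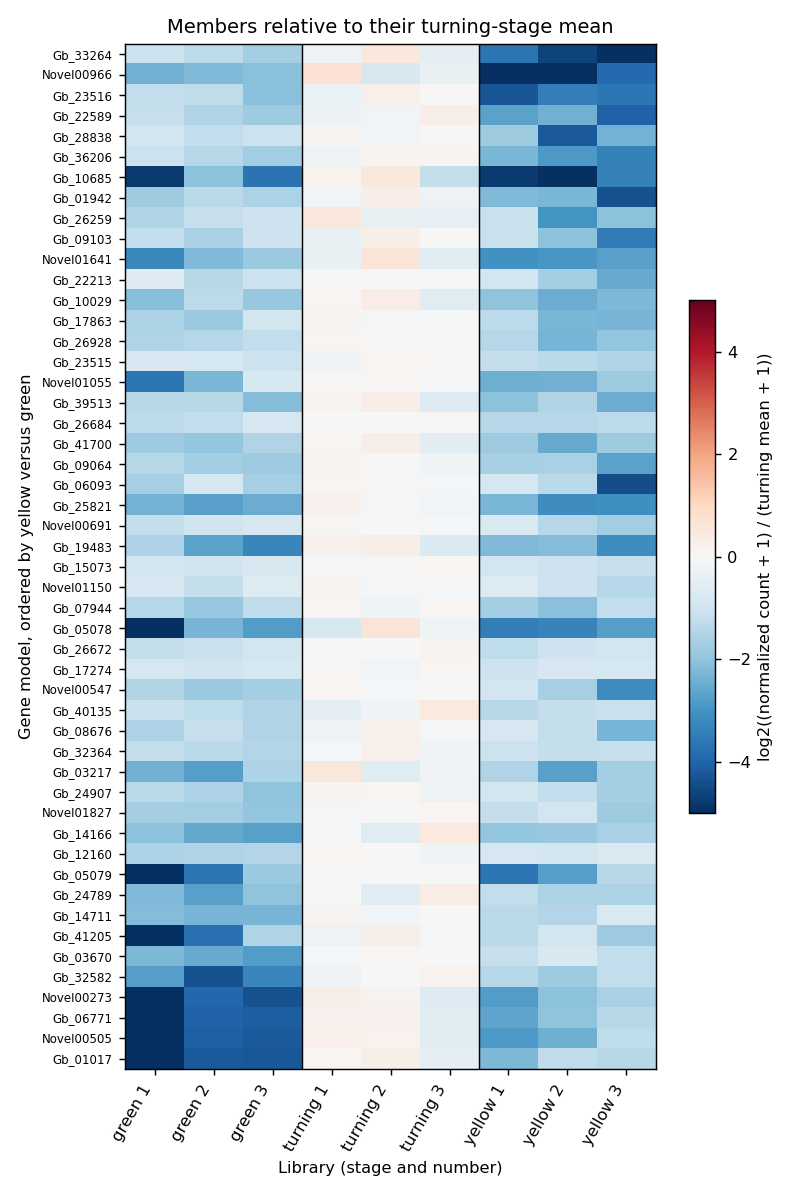
Each row is 1 of the 50 members and each column 1 of the 9 libraries, coloured by log2 of the normalized count plus 1 relative to the turning-stage mean plus 1; values under -5 are drawn as -5. The turning columns lie around 0, with the highest turning library at least 2 times the lowest in 9 rows. The green and yellow columns lie below them, with members low in yellow leaves at the top and members low in green leaves at the bottom.

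The largest peak ratio belonged to Gb_25821, at 4.51. Its normalized counts were 35.7, 27.3 and 32.4 in the green, 215, 175 and 170.2 in the turning and 37.7, 20.6 and 21.5 in the yellow libraries. The turning libraries lay far above all others, and green and yellow libraries overlapped. Its turning mean of 187 ± 24.6 (SD, n = 3) was 5.88-fold the green mean of 31.8 ± 4.22 and 7.02-fold the yellow mean of 26.6 ± 9.64. Between yellow and green leaves, a contrast in which the rule sets no direction, its log2 fold change was -0.28 ± 0.29 (standard error; adjusted p = 0.422 by edgeR), which is within the spread of the libraries. With library totals as the scaling that fold change was -0.98 (adjusted p = 0.0174 by edgeR), while over the other alternatives it did not pass.

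The second largest ratio was that of Gb_05078, at 2.89. It had 2.69, 46.4 and 33.1 in the green, 134, 369 and 199 in the turning and 20.2, 22.1 and 33.8 in the yellow libraries. The turning libraries differed by 2.75-fold among themselves, and green library 1 lay far under the other green libraries. Its log2 fold change from green to yellow was -0.13 ± 0.81 (standard error; adjusted p = 0.899 by edgeR), with values from -0.85 to 0.71 over the alternatives and no call in any. The third largest ratio, 2.67, was that of Gb_05079, whose identifier follows directly on that of Gb_05078. Its turning libraries were nearly level, with 46.0, 45.1 and 47.0 normalized counts, against 0, 2.73 and 12.0 in green and 2.69, 5.88 and 16.9 in yellow leaves. Gb_05079 was the only member with a count of 0 in any library. Gb_05079 and several members below fall outside the rule for named models and were chosen after their values were seen.

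Values just inside and outside the limits of the rule lay close together. The lowest peak ratios among the members were 1.501, 1.508 and 1.513, and the highest ratios just outside were 1.494, 1.487 and 1.460. Between ratios of 1.5 and 1.6 there were 11 members, and 14 further models with enough turning counts lay between 1.4 and 1.5. At the count limit, the members with the fewest counts had a lowest turning library of 30.8 and 37.7, and the nearest models outside had 23.9 and 12.3. Without turning library 3 the rule would take 89 models, all 50 members among them, and leaving out any other library gave 52 to 71. Apart from shifts in the size factors, leaving out a library can only loosen the rule. A larger set that keeps nearly all members was therefore fixed in advance. Turning library 3 was the lowest turning library in 24 of the 50 members, turning library 1 in 14 and turning library 2 in 12. Scaling by library totals gave 52 models, of which 33 were members, so 17 of the 50 depend on the composition scaling.

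The contrasts that the rule used were also fitted across all 23042 models with enough counts, with edgeR's quasi-likelihood test. All 50 members were among these models, 48 of them also when only green and yellow libraries were counted. In turning compared with green leaves 43 members were higher (edgeR adjusted p below 0.05), against 11.8% of all tested models. In turning compared with yellow leaves 47 members were higher, against 21.0% of all tested models that were lower in yellow than in turning leaves. Both calls together were made for 41 members, against 0.595% of all tested models, which is 82.0% of the members and 29.9% of the 137 models with both calls. Without green library 1 or 2, the members called higher in turning than in green leaves numbered 28 and 27. These counts are fixed in large part by the choice of members, and nothing is read from them. The fitted log2 fold changes of the members had a median of 1.62 for turning versus green and -1.91 for yellow versus turning, where the medians of all tested models were -0.02 and -0.05. Both comparisons share the turning libraries.

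**Figure D2:**
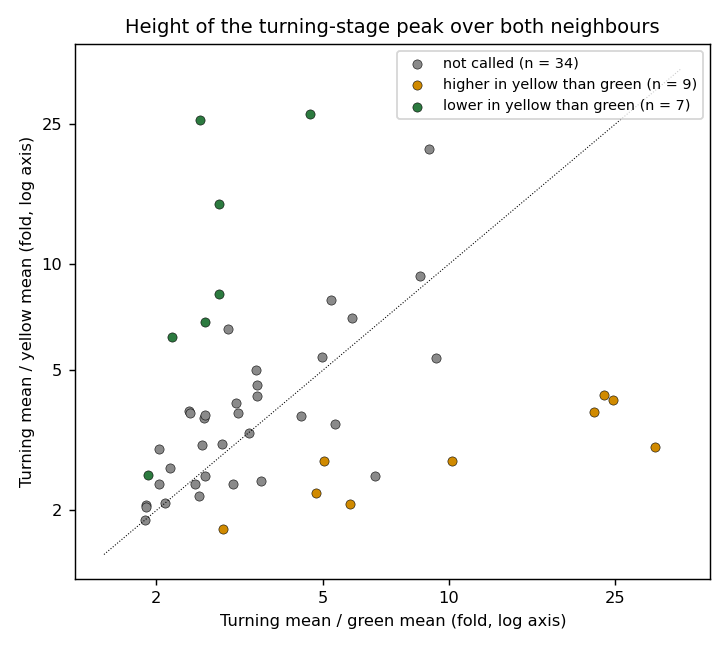
Each point is a member, placed by the fold of its turning mean over its green mean (horizontal, log axis) and over its yellow mean (vertical, log axis), and coloured by the edgeR call of yellow versus green leaves (9 higher, 7 lower, 34 not called). Most points lie near the dotted line of equal folds at 2-fold to 5-fold; 4 members stand more than 20-fold above green leaves and 3 members more than 20-fold above yellow leaves.

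The green and yellow levels on either side of the peak were called different in a minority of the members. In yellow compared with green leaves 9 members were higher and 7 lower, together 16 or 32.0% (edgeR, adjusted p below 0.05), where 30.2% of all tested models were higher, 31.9% lower and 62.1% either. The members had a median log2 fold change of -0.16, and all tested models one of -0.06. The rule asks for a turning level above both neighbours and so leaves out models that changed steadily over the season. The lower share of calls is therefore not independent of the choice of members, whereas the direction of a member's yellow versus green change is not set by it. Green and yellow libraries did not overlap in 20 members (40.0%, against 67.9% of all tested models), with yellow above green in 11 (33.0% of all tested models) and below in 9 (34.9%). Among the 24 members with a mean under 100 normalized counts in green and yellow leaves 9 were called, and among the 26 others 7.

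The split between higher and lower members depended on the scaling and on single libraries. Upper-quartile factors gave 8 higher and 14 lower members, and library totals 6 higher and 26 lower, while over all tested models the median moved from -0.06 to -0.39 and -0.78. The median of the members moved with it, to -0.49 and -0.87. Without green library 1 the number of lower members was 4, and without yellow library 1 it was 12. Of the 16 called members, 10 passed the test in each of the 19 alternatives.

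**Figure D3:**
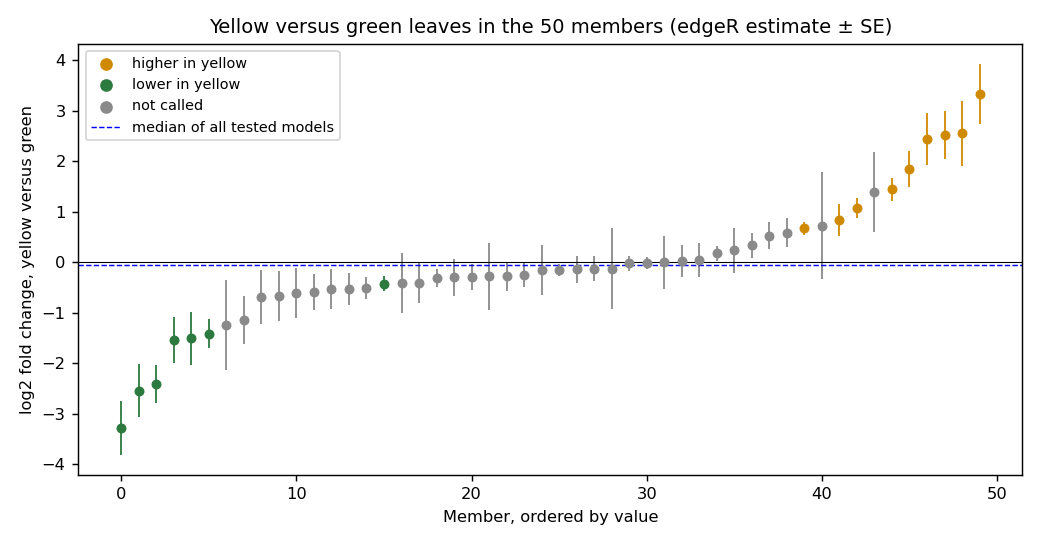
Log2 fold change of yellow versus green leaves (edgeR estimate, vertical) for the 50 members in order of the estimate, with bars of 1 SE; the dashed line is the median of all 23042 tested models. The values run from -3.29 to 3.34, and most grey points, which were not called, lie within 1 of 0.

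In 9 members the peak was followed by a yellow level that was called higher than the green one. Their yellow over green ratio of means ran from 1.62 to 10.3, and their turning leaves stood 2.88-fold to 31.1-fold above green but 1.78-fold to 4.26-fold above yellow leaves. The largest rise was that of Gb_01017. It had 0.673, 5.46 and 5.27 in the green, 125, 146 and 83.2 in the turning and 24.3, 48.5 and 44.5 in the yellow libraries. Green libraries were near the lower end of counting, yellow libraries stood above all of them, and turning libraries above all yellow ones. Its log2 fold change from green to yellow was 3.34 ± 0.60 (standard error; adjusted p = 0.0014 by edgeR). Novel00505, which carries the other identifier prefix of the table, had 8.75, 49.1 and 45.2 in the green, 1005, 956 and 585 in the turning and 115, 154 and 349 in the yellow libraries, with no overlap between stages. Its log2 fold change was 2.56 ± 0.64 (standard error; adjusted p = 0.00814 by edgeR).

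The remaining rises were smaller or belonged to deeper counted models. Gb_06771 and Novel00273 rose by 2.52 ± 0.48 and 2.44 ± 0.52 on the log2 scale (standard error; adjusted p = 0.002 and 0.00364 by edgeR). Gb_32582 had 363, 119 and 248 in the green, 2219, 2453 and 2774 in the turning and 912, 724 and 1056 in the yellow libraries, a log2 fold change from green to yellow of 1.85 ± 0.35 (standard error; adjusted p = 0.00204 by edgeR). Its stages did not overlap. Gb_03670 had 36.3, 30.0 and 24.8 in the green, 163, 187 and 178 in the turning and 78.1, 102 and 73.7 in the yellow libraries, again without overlap, and a log2 fold change of 1.45 ± 0.23 (standard error; adjusted p = 0.000713 by edgeR). These calls passed under every alternative.

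Gb_14711 had the highest counts of all members. It reached 16587, 13851 and 14850.1 normalized counts in turning leaves, against 3377, 3025 and 3004 in green and 5908, 5477 and 8866 in yellow leaves, so that the green libraries were the lowest and nearly level. Its rise from green to yellow was 1.08 ± 0.19 on the log2 scale (standard error; adjusted p = 0.00137 by edgeR) and was 0.36 without a call under library totals. Gb_12160, the member closest to the ratio limit, had 419, 442 and 453 in the green, 1365, 1291 and 1131 in the turning and 714, 665 and 754 in the yellow libraries. Its rise of 0.67 ± 0.12 (standard error; adjusted p = 0.00156 by edgeR) turned to -0.05 without a call under library totals. Gb_24789 passed by a narrow margin, with a log2 fold change of 0.83 ± 0.31 (standard error; adjusted p = 0.0452 by edgeR), and lost its call in 11 of the 19 alternatives.

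In 7 members the yellow level was called lower than the green one. Their yellow over green ratio of means ran from 0.0997 to 0.755, and turning leaves stood 1.91-fold to 4.66-fold above green and 2.53-fold to 26.7-fold above yellow leaves. The largest fall was that of Gb_33264, which had 62.6, 51.8 and 39.9 in the green, 110.1, 189 and 94.7 in the turning and 9.43, 4.41 and 1.54 in the yellow libraries. The stages did not overlap, and yellow library 3 rested on a single read. The log2 fold change from green to yellow was -3.29 ± 0.54 (standard error; adjusted p = 0.000798 by edgeR). Novel00966 had 646, 736 and 797 in the green, 5607, 1946 and 2609 in the turning and 76.8, 76.5 and 227 in the yellow libraries. Turning library 1 stood well above the other turning libraries, and the yellow libraries lay under all green ones, with a log2 fold change of -2.55 ± 0.53 (standard error; adjusted p = 0.00304 by edgeR).

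**Figure D4:**
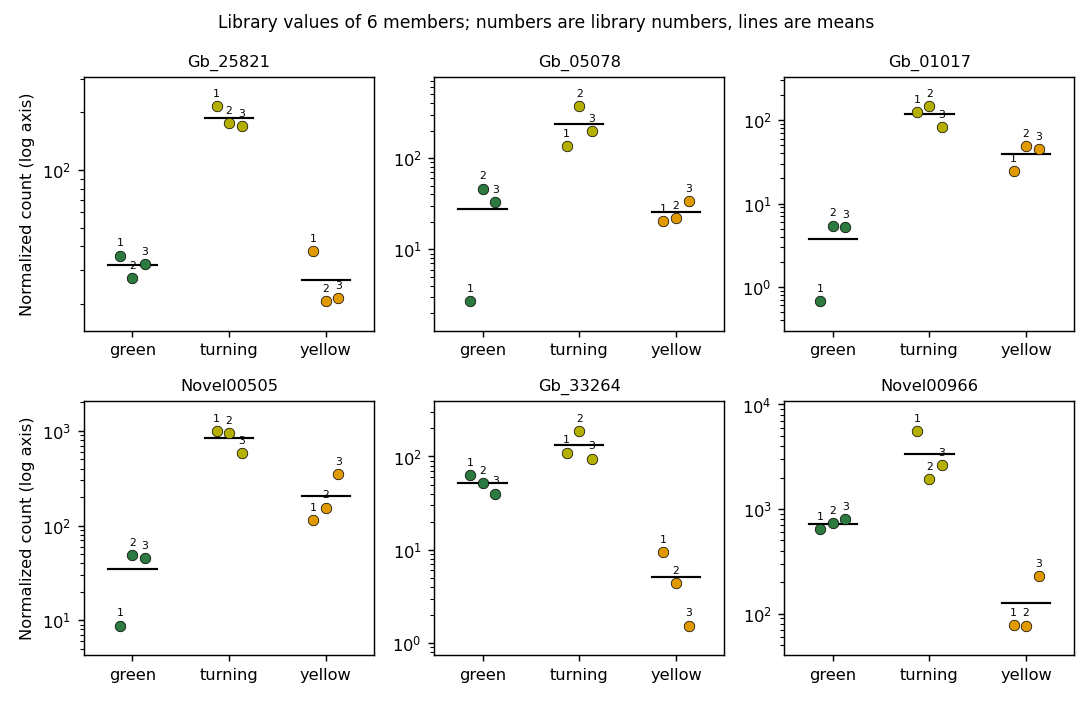
Normalized counts (log axis) of the 6 members named by rule in the 9 libraries, by stage; each point is a library with its number and each line the mean of 3 libraries. In Gb_25821 and Gb_05078 the green and yellow libraries overlapped, and no difference between them was called in the main fit. Yellow levels were above the green ones in Gb_01017 and Novel00505 and below them in Gb_33264 and Novel00966.

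Gb_36206 was the fall with the deepest counts among those of at least 1 on the log2 scale. Its normalized counts were 2409, 1897 and 1516 in the green, 4196, 5508 and 5510.5 in the turning and 1035, 693 and 485 in the yellow libraries, with no overlap between stages and a log2 fold change of -1.42 ± 0.29 (standard error; adjusted p = 0.00274 by edgeR). Gb_23516 and Gb_23515, whose identifiers are consecutive, were both called lower in yellow leaves. Gb_23516 had 51.8, 50.9 and 28.6 in the green, 99.1, 148 and 123 in the turning and 5.39, 10.3 and 9.21 in the yellow libraries and fell by 2.41 ± 0.37 on the log2 scale (standard error; adjusted p = 0.000608 by edgeR). Gb_23515 had 5706, 5463 and 4793 in the green, 9021, 10977 and 10447 in the turning and 4501, 4013 and 3532 in the yellow libraries, a far smaller fall of 0.43 ± 0.15 (standard error; adjusted p = 0.0313 by edgeR), and its call was lost when green library 1 or 2 or yellow library 2 or 3 was left out. The within-stage deviations of this pair correlated only weakly, with r = 0.24 over the 9 libraries. Those of Gb_05078 and Gb_05079 gave r = 0.72. Green library 1, with 4 raw counts of Gb_05078 and 0 of Gb_05079, enters the latter value. At the turning stage Gb_05078 spanned 2.75-fold and Gb_05079 only 1.04-fold. The files do not say whether consecutive identifiers mark neighbouring genes.

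The other 2 falls had few counts in yellow leaves. Gb_22589 had 28.9, 22.7 and 18.8 normalized counts in green and 9.43, 11.8 and 3.07 in yellow leaves, after 54.0, 60.4 and 84.7 at the turning stage. Its fall of 1.54 ± 0.46 on the log2 scale (standard error; adjusted p = 0.0168 by edgeR) missed the threshold without green library 1 (adjusted p = 0.0536 by edgeR). Gb_28838 had 22.2, 18.2 and 20.3 in green and 12.1, 1.47 and 7.68 in yellow leaves and a log2 fold change of -1.51 ± 0.53 (standard error; adjusted p = 0.0342 by edgeR), and it lost the call in 7 alternatives.

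For the other 34 members no difference between yellow and green leaves was called, 9 of them with a positive and 25 with a negative fold change. In 15 of the 34 the yellow and green means were within 1.2-fold of each other. A missing call does not show equal levels, and the standard errors ran from 0.12 to 1.06 on the log2 scale. Gb_17274 had one of the closest returns, with 799, 724 and 779 in the green, 1492, 1317 and 1527 in the turning and 697, 816 and 794 in the yellow libraries. Its green and yellow libraries overlapped and gave a log2 fold change of -0.02 ± 0.12 (standard error; adjusted p = 0.887 by edgeR). Gb_26672 had 466, 488 and 568 in the green, 987, 1048 and 1156 in the turning and 446, 513 and 565 in the yellow libraries, with overlapping green and yellow libraries and a log2 fold change of -0.02 ± 0.14 (standard error; adjusted p = 0.899 by edgeR).

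Deeper counted members with the same course were Gb_32364 and Gb_15073. Gb_32364 had 3096, 2860.4 and 2648 in the green, 6685, 8581 and 6465 in the turning and 3409, 3166 and 3290.5 in the yellow libraries. Its yellow libraries stood slightly above all green ones, and the log2 fold change of 0.17 ± 0.14 (standard error; adjusted p = 0.317 by edgeR) turned to -0.54 under library totals, where it was called lower (adjusted p = 0.0126 by edgeR). Gb_15073 had 2027, 1966 and 2236 in the green, 3787, 3787 and 4220.4 in the turning and 2002, 1934 and 1753 in the yellow libraries and a log2 fold change of -0.16 ± 0.12 (standard error; adjusted p = 0.28 by edgeR). Under library totals Gb_17274, Gb_26672 and Gb_15073 were called lower as well, with log2 fold changes of -0.74, -0.75 and -0.87. Those values lie close to the median of -0.78 of all tested models on that scale.

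Gb_09064 and Gb_26928 were the deepest counted of the 34 with a peak ratio of at least 2. Gb_09064 had 2184, 1783 and 1670.0 in the green, 6522, 5930.4 and 5215 in the turning and 1861, 1895 and 921 in the yellow libraries, which put its turning mean 3.13-fold above green and 3.78-fold above yellow leaves. Gb_26928 had 1242, 1322 and 1497 in the green, 3781, 3522 and 3285 in the turning and 1299, 703 and 891 in the yellow libraries. Its green and yellow libraries overlapped, and the log2 fold change of -0.51 ± 0.21 (standard error; adjusted p = 0.0621 by edgeR) passed with the replicate number as a block (-0.55). It also passed with upper-quartile factors, library totals, no filter and limma-voom, and without yellow library 1. Gb_01942 had 60.6, 82.8 and 68.5 in the green, 193, 261 and 175 in the turning and 44.5, 42.7 and 9.21 in the yellow libraries, with all yellow libraries below all green ones. Its log2 fold change of -1.15 ± 0.48 (standard error; adjusted p = 0.0628 by edgeR) also passed with the block, at -1.23, and with upper-quartile factors, library totals, DESeq2 and limma-voom. Gb_26928 and Gb_01942 were the only 2 members whose yellow versus green call was gained with the block, and none was lost.

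Of the 13 members with a peak ratio of at least 2, 10 were among the 34 and 3 were called in yellow versus green leaves (Novel00966, Gb_32582 and Novel00273). Novel01641 had 9.42, 20.0 and 25.6 in the green, 74.1, 151 and 63.2 in the turning and 10.8, 11.8 and 13.8 in the yellow libraries, so that turning library 2 stood apart from the other turning libraries. Its log2 fold change between green and yellow was -0.62 ± 0.49 (standard error; adjusted p = 0.304 by edgeR). Gb_07944 had 307, 220.1 and 341 in the green, 879, 715 and 901 in the turning and 256, 197 and 355 in the yellow libraries, with like ranges in green and yellow leaves. Gb_41700, one of the members with the fewest counts, had 14.8, 13.6 and 18.8 in the green, 58.1, 68.9 and 37.7 in the turning and 14.8, 8.83 and 15.4 in the yellow libraries. Its green and yellow libraries overlapped, as did those of Gb_07944.

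Gb_14166 had 335, 238 and 210.1 in the green, 1345, 907 and 1944 in the turning and 365, 377 and 453 in the yellow libraries. All its yellow libraries stood above all green ones, yet the log2 fold change of 0.58 ± 0.29 did not pass (standard error; adjusted p = 0.105 by edgeR). Gb_17863 had 1805, 1504 and 2889.8 in the green, 5930.1, 5183 and 5116 in the turning and 2176, 1118 and 1066 in the yellow libraries, where green library 3 was the highest library outside the turning stage. Gb_22213 had 4117, 2469 and 3047 in the green, 6579, 6642 and 6288 in the turning and 3392, 1992 and 1145 in the yellow libraries, nearly level at the turning stage and spread over 2.96-fold in yellow leaves. Gb_26684 had libraries close to each other within the turning and within the yellow stage, with 147, 156 and 202 in the green, 355, 359 and 376 in the turning and 133, 134 and 146 in the yellow libraries. Its yellow libraries lay below all green ones, and its log2 fold change of -0.31 ± 0.17 did not pass (standard error; adjusted p = 0.14 by edgeR).

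Turning libraries of the members were closer to each other than their green or yellow libraries. The biological coefficient of variation over the 50 members (common dispersion) was 0.24 at the turning, 0.41 at the green and 0.38 at the yellow stage, where all tested models gave 0.36, 0.33 and 0.40. A member needs all its turning libraries above the limit, so a small spread at this stage is favoured by the rule. The highest turning library was a median of 1.32 times the lowest, against 1.38 in the 17230 models that met the turning count limit. It was at least 2 times the lowest in 9 members (18.0%, against 15.4% of these models). The median SD, in percent of the stage mean, was 15.5 in members and 16.7 in these models at the turning stage. It was 21.6 against 15.04 in green and 32.2 against 20.6 in yellow leaves. Relative to these models, the members thus differed mainly by a wider spread in green and yellow leaves. Members have lower counts at those stages by the rule, and the cause was not tested. The widest span, 3.26-fold, was that of Gb_10685, with 4.04, 31.8 and 9.79 in the green, 154, 196 and 60.1 in the turning and 4.04, 2.94 and 12.3 in the yellow libraries.

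Green library 1 was low in several members. It lay at or under 1/2 of both other green libraries in 10 of the 50 members, 20.0% against 1.21% of the 17230 models. Of these 10 members, 8 had a green mean under 100 normalized counts. Among models with a mean under 100 in green and yellow leaves the share was 1.65% of 2793 models, and 7 of the 24 such members. Gb_41205 had the widest green spread of those with a green mean above 100, with 75.4, 235 and 1086 in green leaves, against 2574, 3833 and 2916 in turning and 1213, 1645 and 871 in yellow leaves. The 10 members include 4 of the 9 called higher in yellow leaves, and without green library 1 there were 8 higher and 4 lower members. Of the 16 calls 12 were kept and 4 lost without it, those of Gb_22589, Gb_28838, Gb_23515 and Gb_24789, and none of these 4 is among the 10 members.

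Yellow library 3 was low in another set. It lay at or under 1/2 of both other yellow libraries in 8 members, 16.0% against 4.67% of the 17230 models. In Gb_06093 it had 21.5 normalized counts, against 260.02 and 185 in yellow libraries 1 and 2, 152, 257 and 149.8 in green and 496, 496 and 444 in turning leaves. In Gb_01942 and Gb_08676 it was low as well, at 9.21 against 44.5 and 42.7, and at 190.4 against 534 and 419. The within-stage deviations of these 3 members correlated with r of 0.95 to 0.97. They were picked from the 8 after their values were seen. The low yellow library 3 that put them in this set also enters r, so nothing further is read from it. No member of this set was called higher in yellow leaves and 2 were called lower, and without yellow library 3 there were 9 higher and 5 lower members in all.

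One group of 4 members, chosen after their values were seen, had closely correlated deviations within the stages. Gb_06771, Novel00505, Novel00273 and Gb_01017 were the 4 with the largest rise from green to yellow, and their deviations from the stage means, which the rule did not use as such, correlated pairwise with r from 0.91 to 0.98 over the 9 libraries. Gb_06771 had 11.4, 34.6 and 33.1 in the green, 678, 675 and 407 in the turning and 94.3, 144 and 224 in the yellow libraries. Novel00273 had 8.08, 32.7 and 24.1 in the green, 615, 580.2 and 329 in the turning and 72.8, 122 and 163 in the yellow libraries. In each of these 4 members green library 1 was the lowest green, turning library 3 the lowest turning and yellow library 1 the lowest yellow library. All 4 are among the 10 members with a low green library 1, which enters r. Their raw counts there were 17, 13, 12 and 1 in the order named above. Among yellow libraries Gb_01017 was highest in library 2 and the rest of the group in library 3.

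The ratio of Novel00273 to Gb_06771 stayed between 0.706 and 0.947 while Gb_06771 itself ranged over 59.2-fold between libraries. Novel00505 stayed between 0.765 and 1.55 times, and Gb_01017 between 0.0588 and 0.337 times the level of Gb_06771, with the lowest of each of these ratios in green library 1. Without positions it cannot be told whether some of these models share reads, overlap or are separate genes. Counted without the 4, there were 5 members higher in yellow leaves instead of 9, an alternative added after the values were seen. Over all 1225 pairs of members the median r was 0.01, and 18 pairs (1.47%) reached 0.9, where 0.753% of all pairs of the 17230 models did. The pairs share libraries and their depth, so these values are descriptions.

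**Figure D5:**
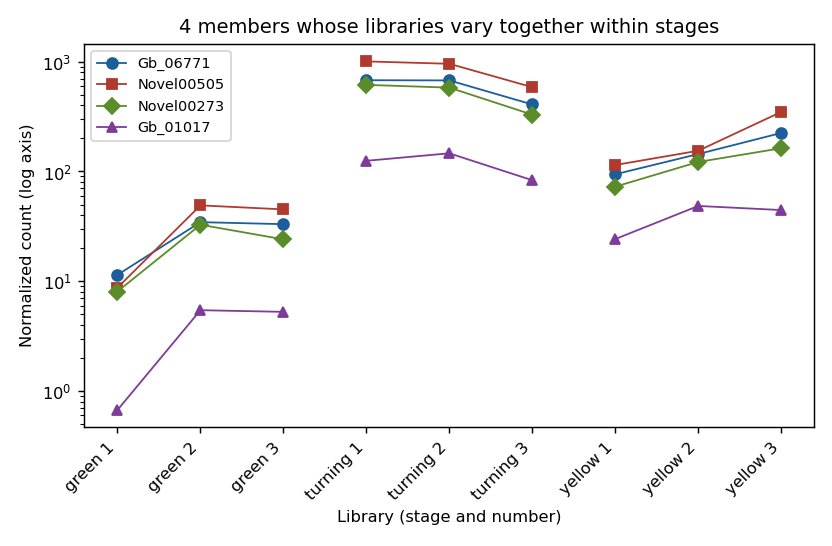
Normalized counts (log axis) of Gb_06771, Novel00505, Novel00273 and Gb_01017 in each library, with lines joining the libraries of a stage only to guide the eye. The 4 courses are lowest in green library 1 and highest in turning libraries 1 and 2. Gb_01017 runs the least parallel, at 0.0588 to 0.337 times the level of Gb_06771.

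The members carried identifiers of both prefixes in the table. Of the 50 members 41 began with Gb_ and 9, or 18.0%, with the other prefix, where that prefix made up 5.27% of the 17230 models that met the count limit at the turning stage. The 9 are spread over the courses, with 2 called higher in yellow leaves, 1 lower and 6 not called. The files do not say what the prefix stands for.

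Together the members took up a small share of the sequenced transcripts. They held 0.148%, 0.131% and 0.149% of the counts in green libraries, 0.360%, 0.371% and 0.343% in turning libraries and 0.0987%, 0.0801% and 0.0802% in yellow libraries. The turning libraries are the highest by the choice of members. The yellow share of 0.0863% ± 0.0107 was 0.606 times the green share of 0.143% ± 0.00968 (SD, n = 3), without overlap. On the normalized scale the sums over the members were 30452 ± 1870.1 for green, 88269 ± 2582 for turning and 30809.8 ± 2678 for yellow leaves, which puts yellow at 1.01 times green, with overlapping libraries. The direction of the yellow to green difference of the sum therefore depends on the scaling.

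The mirror rule, with the lowest green or yellow library at least 27 normalized counts and at least 1.5 times the highest turning library, took 23 models with a transient dip. Of these 3 were higher and 2 lower in yellow than in green leaves, 5 of 23 beside 16 of the 50 members with a peak and 62.1% of all tested models. Under library totals the dip models had 1 higher and 10 lower, and the peak members 6 higher and 26 lower, so both counts move with the scaling. The difference between both sets was not tested. With no limit on the ratio, 475 models that met the count limit had all turning libraries above all others, and 348 models with at least 27 normalized counts in every green and yellow library had all turning libraries below all others.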

How the data were processed

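Leaf RNA was sequenced from 3 stages, 3 libraries each. The authors deposited raw read counts per gene model in 1 table, 1 column per library and none pooled. Tools listed in the submitters' processing notes, with no role, are HTSeq 0.6.1, HISAT2 2.0.4 and CASAVA 1.8. Genome build, annotation and strand setting were not given in the sources used here, so models that overlap or share reads with a near-identical copy could not be recognised. Libraries were assigned by title. The members and lists were chosen with earlier results of these data known. Gene lists fixed by name were not tested, since the files pair no identifier with a name.

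Size factors, the rule and all summaries were computed from the counts. Tests used edgeR 4.0.16 in R 4.3.3: filterByExpr (minimum count 10, total 15), TMM factors, and 1 quasi-likelihood model over 9 libraries with stage as the term (robust = TRUE; two-sided), adjusted by Benjamini-Hochberg over 23042 models at 0.05. The code was tested on simulated data. The rule for named models took the 2 largest peak ratios and, among members called in yellow versus green without overlap and with a count in every green and yellow library, the 2 largest rises and falls. Library pairs within a stage differed beyond sampling noise (chi-square per degree of freedom at least 43.9). Deviations from stage means correlated across genes in all 9 pairs of same-numbered libraries (r from 0.24 to 0.66, above 0.1) and from -0.52 to 0.03 in the others, so numbers were read, from the data and not the labels, as pairing libraries. The deviations of a stage sum to 0, so the low r of the others is partly a consequence. Over the members alone, 7 of the 9 same-numbered pairs had a positive r (from -0.17 to 0.58). The main model left this pairing out, and the replicate block took it in as an alternative. Alternatives were other scalings (DESeq2 size factors, upper quartile, library totals), filters, DESeq2 1.42.0, limma-voom 3.58.1, robust = FALSE, the replicate block, green and yellow libraries alone, and each library left out.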

Additional observations from a re-analysis of the deposited data

How the results depend on the processing

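The number of members was 48 to 55 with TMM-scaled sizes, upper-quartile factors, library totals, a count limit of 10 and no exclusion of the highest models, and 44 with a count limit of 50. It was 13 with a ratio limit of 2 and 103 with the lower ratio limit tried. With 1 library left out, which loosens the rule, it was 52 to 89. Upper-quartile factors kept 41 and library totals 33 of the 50. Members higher in yellow than in green leaves numbered 6 to 9 over the scalings, filters, tools and the replicate block, 8 to 10 with 1 library left out and 5 without the 4 members that vary together. Members lower in yellow leaves numbered 14 with upper-quartile factors, 26 with library totals, 9 with the replicate block and 4 to 12 with 1 library left out. The replicate block changed the call of 2 members, both gained, as given above. No called member was called in the opposite direction in any alternative. For the contrasts used by the rule, 46 members were higher in turning than in green leaves with the block, 48 with DESeq2 and 39 with library totals, and 27 to 47 with 1 library left out, a setting added after the values were seen. For turning over yellow leaves the count was 49 with each of these 3 and 41 to 49 with 1 library left out. The summed members of turning leaves stood 2.51-fold above green and 4.15-fold above yellow leaves by share of library counts, and 2.90-fold and 2.86-fold by normalized counts; yellow over green was 0.606 and 1.01. Single members kept their side of the threshold in 883 of the comparisons of 50 members with the alternatives. Members called in neither fit could change sign within these 883, as Gb_05078 did from -0.13 to 0.71 with limma-voom. A call was lost in 24 comparisons and gained in 39. In 2 more, both under library totals, the sign turned as a call was gained or lost: Gb_32364 at -0.54 and Gb_12160 at -0.046. The cause was not tested. Reads carry no molecular identifiers, and members with few green or yellow counts have the largest standard errors.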
